A study of Mus musculus with 6 samples.

Results

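The HoxC cluster genes Hoxc4, Hoxc5, Hoxc6, Hoxc8, Hoxc9 and Hoxc10 were described in RNA-seq data of mesonephroi from male mouse embryos at embryonic day 16.5. They were chosen by gene symbol, with earlier results of these data known. All 6 are among the 14366 genes of the deposited table. Hoxc11, the seventh HoxC gene listed there, is not one of the 6 and serves below as their neighbour; Hoxc12 and Hoxc13 were not analysed here. Of 6 libraries, 3 were controls (Osr2Cre+;Gata2-flox/+) and 3 were Gata2cKO (Osr2Cre+;Gata2-flox/flox), so that every embryo carried the recombinase Osr2-Cre and at least 1 floxed allele of the transcription factor gene Gata2, and the groups differed in the second allele. The recombinase follows the expression of Osr2, a gene of urogenital mesenchyme. Cells in whose lineage Osr2 was never expressed keep Gata2. The dissected tissue, which included the mesonephric tubules, holds the Wolffian duct and the mesenchyme around it, from which the epididymis forms. The question behind the comparison is the role of Gata2 in the mesonephric mesenchyme. Whether the libraries of a group came from separate embryos is not stated in the labels; p-values measure the spread between the libraries, which may be technical.

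Hox genes encode transcription factors that bind DNA through a homeodomain and set regional identity along the head to tail axis. In mammals they lie in the clusters HoxA, HoxB, HoxC and HoxD, where genes with the same number are paralogs, copies with closely related homeodomains, and where the order along the chromosome follows the order of expression from head to tail, low numbers being anterior. Genes of the middle and posterior groups are active in the mesoderm that forms the urogenital tract, and their proteins often bind DNA together with the TALE homeodomain proteins of the Pbx and Meis families.

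All 7 listed HoxC genes lie on the plus strand of chromosome 15 (GRCm38, GENCODE M21). In the direction of transcription the order is Hoxc11 (102954427 to 102957708), Hoxc10 (102966796 to 102971893), Hoxc9 (102976439 to 102985099), Hoxc8 (102990607 to 102994111), Hoxc6 (102998257 to 103011881), Hoxc5 (102967443 to 103017429) and Hoxc4 (103018934 to 103036852). The long span of Hoxc5 comes from a non-coding transcript that begins within Hoxc10, and its coding transcript starts at 103013815. Hoxc5 and Hoxc10 share 166 exonic bases, 5.37% of the exonic bases of Hoxc5 and 8.70% of those of Hoxc10, and reads there cannot be told apart. The other 5 genes have no exonic base in common with another annotated gene.

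The homeobox, the 180 bases that encode the homeodomain, shows how alike these genes are and how far reads of one could be mistaken for another. The homeoboxes of Hoxc6, of Hoxc8 and Hoxc9, whose log2 fold changes were the lowest of the cluster, and of Hoxc11, which did not pass the threshold, are shown 5′ to 3′ from the GENCODE M21 transcripts. Capitals mark bases 142 to 159, which encode the conserved core of the DNA-contacting helix and were used to find the box.
Hoxc6: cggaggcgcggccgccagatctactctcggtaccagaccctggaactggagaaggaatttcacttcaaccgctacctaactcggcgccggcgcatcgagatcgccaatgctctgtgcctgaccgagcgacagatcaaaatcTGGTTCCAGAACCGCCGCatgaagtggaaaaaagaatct
Hoxc8: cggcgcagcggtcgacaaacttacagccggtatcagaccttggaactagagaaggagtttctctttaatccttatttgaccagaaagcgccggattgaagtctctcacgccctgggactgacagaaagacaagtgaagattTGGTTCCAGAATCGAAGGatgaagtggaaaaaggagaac
Hoxc9: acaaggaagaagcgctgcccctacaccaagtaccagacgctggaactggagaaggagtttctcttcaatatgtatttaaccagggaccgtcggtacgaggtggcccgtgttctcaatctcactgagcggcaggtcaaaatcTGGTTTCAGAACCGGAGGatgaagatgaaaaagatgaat
Hoxc11: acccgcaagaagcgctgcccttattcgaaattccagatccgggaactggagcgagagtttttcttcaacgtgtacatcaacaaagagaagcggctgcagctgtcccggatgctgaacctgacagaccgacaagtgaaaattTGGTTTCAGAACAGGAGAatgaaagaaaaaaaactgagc
Between pairs of the 6 genes, 58.3% to 77.8% of these bases were identical over 15 pairs, with Hoxc5 and Hoxc6 the most alike. Against their paralogs in the other clusters the share was 73.3% to 84.4% over 14 pairs. The longest identical stretch in a paralog pair was 31 bases long, between Hoxc9 and Hoxa9 (bases 32 to 62 of the box): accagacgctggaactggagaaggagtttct. Within the cluster the longest was 20 bases, between Hoxc4 and Hoxc6. The sources used here state no read length.

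Levels were taken as TPM from the library sums (997351 to 998844), as no label names the unit. TPM are transcript abundances scaled for gene length and library total, which can be set side by side between genes. In controls Hoxc8 was the most abundant HoxC gene at 364 ± 41.1 TPM (SD, n = 3), followed by Hoxc6 at 64.8 ± 1.92 TPM, Hoxc10 at 46.0 ± 3.31 TPM, Hoxc9 at 44.4 ± 1.24 TPM, Hoxc11 at 42.2 ± 1.25 TPM, Hoxc4 at 33.4 ± 5.03 TPM and Hoxc5 at 10.9 ± 1.10 TPM. Hoxc10 and Hoxc9 overlapped in this order, while the control values of every other pair of neighbours in it did not overlap. Hoxc8 alone made up 59.96% ± 2.50 (SD, n = 3) of the summed TPM of the 7 genes. In Gata2cKO Hoxc8 was still first at 159 ± 34.5 TPM. Hoxc11 stood second at 37.6 ± 2.35 TPM and overlapped with Hoxc6 at 36.5 ± 3.50 TPM, and Hoxc9 at 17.2 ± 1.81 TPM overlapped with Hoxc4 at 16.5 ± 0.646 TPM.

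All 6 genes fell in Gata2cKO, to between 38.8% and 56.7% of their control means. Each passed the threshold of the limma test (adjusted p under 0.05 over 12300 tested genes), a call made downward for 1.74% of all tested genes, upward for 5.73% and in either direction for 7.47%. In each of the 6 the highest Gata2cKO value lay below the lowest control value, an arrangement found for 10.5% of tested genes in this direction and for 33.9% in either. Their median log2 fold change (the mean log2(TPM + 1) of Gata2cKO less that of controls) was -0.89, or -0.82 with Hoxc11, against 0.05 over all tested genes. In bulk tissue, fewer cells that express a gene and less RNA per cell cannot be told apart.

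**Figure D1:**
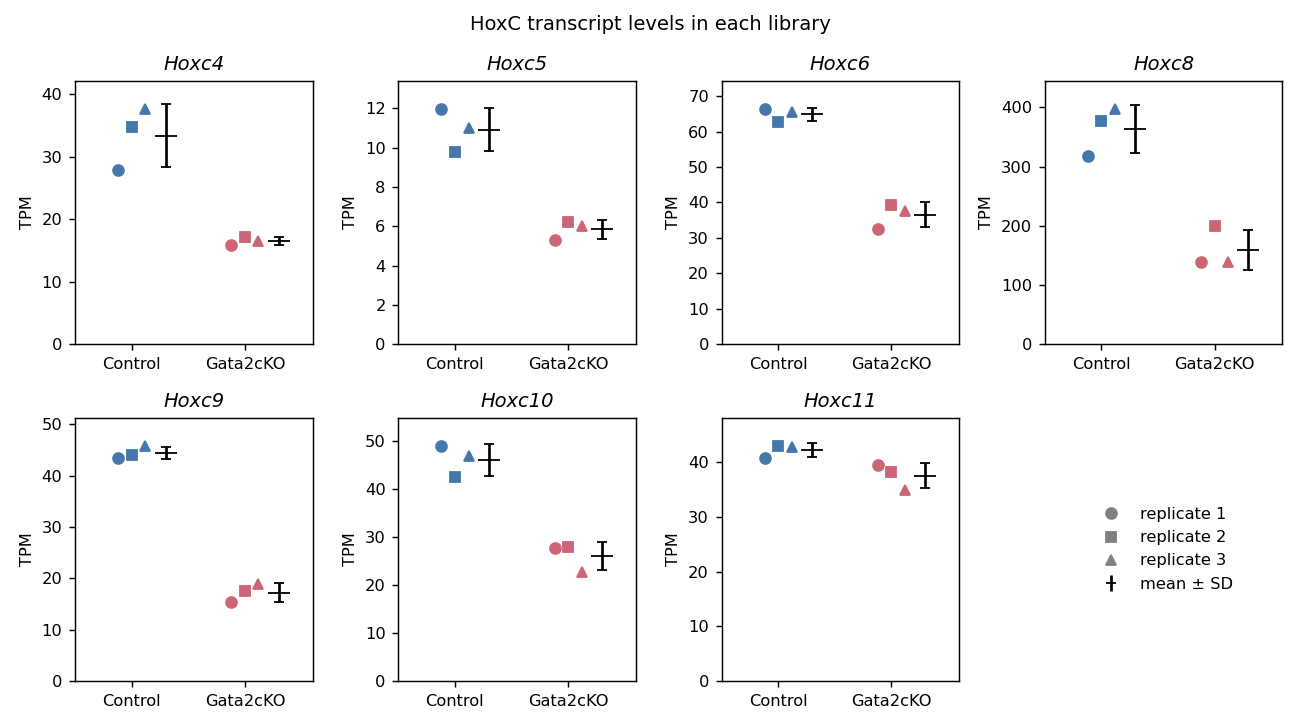
Level of the 7 listed HoxC genes in TPM (vertical axes, each from 0) in the 3 control and 3 Gata2cKO libraries. Points are libraries, with the replicate number shown by the symbol, and bars are the mean ± SD; in every panel but that of Hoxc11 the groups lie well apart, and for Hoxc11 the lowest control (40.7 TPM) and the highest Gata2cKO library (39.5 TPM) nearly meet.

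Hoxc9 and Hoxc8, neighbours in the cluster, had the lowest log2 fold changes of the listed HoxC genes. Hoxc9, a gene of the thoracic to lumbar level, was measured at 43.4, 44.1 and 45.8 TPM in the controls, in the order of replicates 1, 2 and 3 used throughout, and at 15.3, 17.4 and 18.9 TPM in Gata2cKO. The controls lay within 1.06-fold of each other, and the lowest of them was 2.29 times the highest Gata2cKO library. Hoxc9 fell 2.58-fold (log2 fold change -1.32, SE 0.09, 95% confidence interval -1.54 to -1.11, limma adjusted p = 0.00173), and it ranked 4 of 12300 tested genes by p. Hoxc8, which patterns the thoracic skeleton, was at 318, 376 and 397 TPM in controls and at 139.5, 199 and 139 TPM in Gata2cKO. Here the libraries of a group spread more widely, with Gata2cKO replicate 2 at 1.43 times the lowest of its group, and the groups did not overlap. Hoxc8 fell 2.28-fold (log2 fold change -1.20, SE 0.16, 95% confidence interval -1.57 to -0.84, limma adjusted p = 0.0108).

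Hoxc4 and Hoxc5 are active from the cervical level on. Hoxc4 was at 27.8, 34.7 and 37.6 TPM in controls and at 15.9, 17.2 and 16.5 TPM in Gata2cKO. Control replicate 1 was the lowest of its group, and the Gata2cKO libraries lay within 1.08-fold of each other. The change of Hoxc4 was 2.02-fold (log2 fold change -0.96, SE 0.12, limma adjusted p = 0.00971). Hoxc5, the least abundant of the 6, was at 11.9, 9.75 and 11.02 TPM in controls and at 5.30, 6.23 and 5.99 TPM in Gata2cKO. Every Gata2cKO library was below every control, and the gene fell 1.87-fold (log2 fold change -0.80, SE 0.10, limma adjusted p = 0.0108). For Hoxc6, a marker of the thoracic level in vertebrate embryos, the control libraries gave 66.3, 62.7 and 65.5 TPM and the Gata2cKO libraries 32.5, 39.2 and 37.7 TPM. The controls were close together, within 1.06-fold, and the fall was 1.78-fold (log2 fold change -0.82, SE 0.09, limma adjusted p = 0.00756).

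At the posterior side, Hoxc10, a gene of the lumbar level, was at 48.9, 42.4 and 46.7 TPM in controls and at 27.7, 27.8 and 22.7 TPM in Gata2cKO. The groups were apart, with the lowest control at 1.52 times the highest Gata2cKO library, and Hoxc10 fell 1.76-fold (log2 fold change -0.80, SE 0.10, limma adjusted p = 0.0108). Next to it, Hoxc11 was at 40.7, 43.0 and 42.8 TPM in controls and at 39.5, 38.2 and 35.0 TPM in Gata2cKO. These values did not overlap either, but lay close together, and the gene did not pass the threshold (log2 fold change -0.16, SE 0.08, 95% confidence interval -0.35 to 0.02, limma adjusted p = 0.226).

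The 6 calls held whichever of the 6 libraries was left out, and the log2 fold change of Hoxc9 then ranged from -1.39 to -1.24 and that of Hoxc8 from -1.37 to -1.11. Without Gata2cKO replicate 1 the limma adjusted p was just under the threshold for Hoxc4 (0.0489), Hoxc5 (0.0497), Hoxc8 (0.0495) and Hoxc10 (0.0488), in a fit that called 116 genes in place of 919. In the authors' deposited table the log2 fold changes of the 6 genes run from -1.43 for Hoxc9 to -0.88 for Hoxc10, with adjusted p-values from 3.38e-23 to 2.56e-07, and Hoxc11 is at -0.23 (adjusted p = 0.367). That table calls 6.58% of its genes lower and 13.3% changed in either direction. It rests on the same libraries and is no independent measurement.

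**Figure D2:**
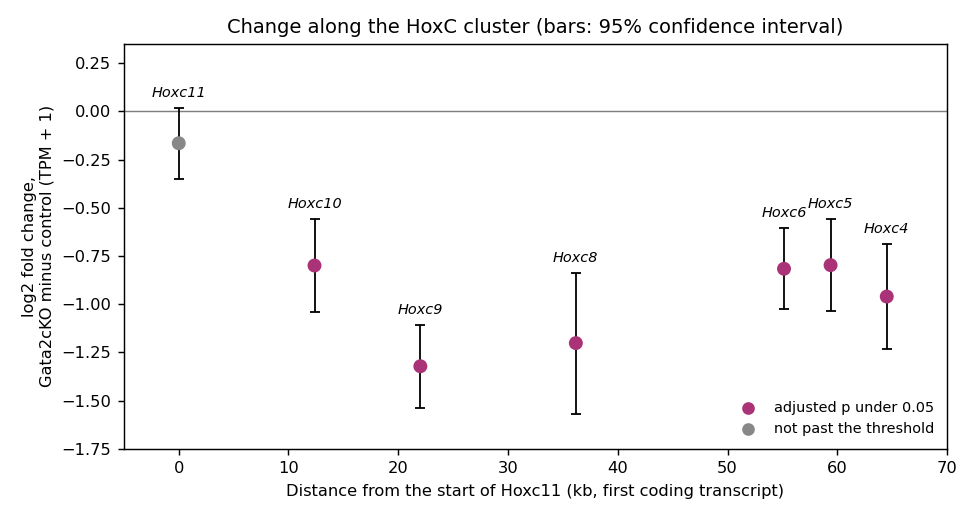
Log2 fold change (vertical axis, Gata2cKO against control, from log2(TPM + 1)) of each HoxC gene against the distance of its first coding transcript from the start of Hoxc11 in kb (horizontal axis). Bars are 95% confidence intervals from limma; Hoxc11 at 0 kb stands at -0.16, Hoxc10 at 12.4 kb at -0.80, Hoxc9 at 22.0 kb at -1.32 and Hoxc4, the farthest at 64.5 kb, at -0.96.

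The ratios of Hoxc10 to its neighbours on both sides differed between the groups, as Hoxc9 fell further and Hoxc11 less. The log2 fold change of Hoxc10 itself (-0.80) was like those of Hoxc5 (-0.80) and Hoxc6 (-0.82). Ratios of neighbours within a library do not depend on how libraries are scaled. A gene that fell without overlap tends to have a lower ratio to any gene of steady level. No share over other gene pairs was computed. The log2 ratio of Hoxc11 to Hoxc10 was -0.26, 0.02 and -0.13 in controls and 0.51, 0.46 and 0.62 in Gata2cKO, so that Hoxc11 was below Hoxc10 in control replicates 1 and 3, level with it in control replicate 2, and above it in every Gata2cKO library. The ratio of Hoxc10 to Hoxc9 rose from 0.05 ± 0.12 to 0.60 ± 0.30 on the log2 scale (SD, n = 3 each), again without overlap. In the other 4 of the 6 neighbouring pairs, from Hoxc4 to Hoxc9, the ratios of the groups overlapped; the largest difference was -0.37 for Hoxc8 over Hoxc6. An exact two-sided permutation test of 3 against 3 libraries cannot go below 0.10, which the pairs without overlap reached (adjusted p = 0.30 over the 6 pairs). All 6 members fell relative to Hoxc11, by 0.65 (Hoxc10) to 1.20 (Hoxc9) on the log2 scale, without overlap in any of the 6 (exact permutation p = 0.10 each, adjusted p = 0.10 over 6 pairs).

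Beyond the ends of the cluster the next tested genes on chromosome 15 lie 232 kb before Hoxc11 (Calcoco1) and 116 kb after Hoxc4 (Smug1, a uracil-DNA glycosylase gene). Of the 5 nearest tested genes on each side, limma called 0 of 10 lower (2 were lower at an unadjusted p under 0.05, and the authors' deposited table calls 2 lower) and 1 higher, and their log2 fold changes lay between -0.27 and 0.41. The gene that rose was Atp5g2, a subunit of the mitochondrial ATP synthase, 89.2 ± 0.735 TPM in controls and 119 ± 3.16 TPM in Gata2cKO (adjusted p = 0.0184 by limma), a call lost in 5 of the 6 removals of a library and held without control replicate 1. Calcoco1 was at 73.3 TPM in controls and 71.1 TPM in Gata2cKO on average (adjusted p = 0.897 by limma), and Smug1 at 37.1 and 47.4 TPM (adjusted p = 0.0772 by limma). Of the 6 members, Hoxc4 alone was matched in the RefSeq table of promoter windows (GRCm38.p6). In the 250 bases before that start (chr15:103034145-103034394, plus strand, 62.0% G or C, within an exon of a longer Hoxc4 transcript) neither strand held AGATAA, which is in 9.99% of 32851 windows of that length, nor the related GATA words AGATAG (7.71%), TGATAA (7.94%) or TGATAG (6.35%), at least 1 of the 4 being in 26.5% of windows. The Hox and Pbx word TGATNNAT, in 7.68% of windows, was not there either. The words were searched on both strands. A match to TGATNNAT can hold TGATAA or TGATAG whole, so these searches are not independent.

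The HoxC genes made up a smaller part of all Hox transcripts in Gata2cKO. The 7 listed HoxC genes made up 20.8%, 21.2% and 20.8% of the summed TPM of the 35 listed Hox genes in controls and 12.7%, 13.9% and 12.9% in Gata2cKO. The controls differed by less than a percentage point, and the means differed by -7.78 percentage points (exact two-sided permutation p = 0.10, the smallest that 3 against 3 libraries allow). Summed HoxC transcripts were 605 ± 45.3 TPM in controls and 299 ± 40.1 TPM in Gata2cKO (SD, n = 3 each). The HoxA share was also lower, 37.5% ± 2.59 against 31.0% ± 1.61, while the HoxB share was higher, 15.05% ± 0.812 against 19.5% ± 1.31, and the HoxD share as well, 26.5% ± 1.93 against 36.3% ± 2.35 (exact permutation p = 0.10 each). In sums, HoxB ranged from 417 to 457 TPM in controls and from 391 to 494 TPM in Gata2cKO, and HoxD from 731 to 789 TPM and from 800.0 to 834 TPM.

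**Figure D3:**
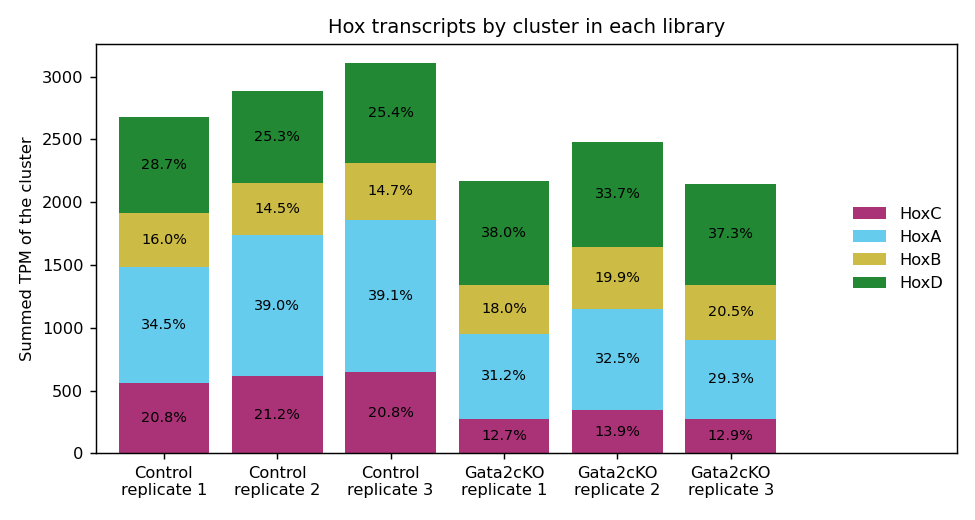
Summed TPM of the listed genes of each Hox cluster (vertical axis) in the 6 libraries, stacked, with each cluster's percentage of the summed Hox TPM printed in its segment. The HoxC segment at the base is 20.8% to 21.2% of the bar in controls and 12.7% to 13.9% in Gata2cKO, and the bars themselves are shorter in Gata2cKO (2264 against 2890 TPM on average).

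Each of the other clusters held called genes too. Of the other 28 tested Hox genes 7 fell, 1 rose and 20 did not pass, with a median log2 fold change of -0.22. In HoxA 5 of 11 fell (Hoxa2, Hoxa4, Hoxa5, Hoxa6 and Hoxa9), in HoxB 1 of 8 (Hoxb4), and in HoxD 1 of 9 fell (Hoxd10) and 1 rose (Hoxd8). These calls moved when a library was left out. In HoxA the gene called in all 6 removals was Hoxa9, and it was the only one when control replicate 2, control replicate 3 or Gata2cKO replicate 1 was removed. Hoxa6 was called as well on removal of Gata2cKO replicate 3, Hoxa4, Hoxa5 and Hoxa6 on removal of Gata2cKO replicate 2, and these with Hoxa2 and Hoxa3 on removal of control replicate 1. In HoxB and HoxD no gene was called in 5 of the 6 removals, the exception being that of control replicate 1. Of the HoxC genes 6 were called lower in each.

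**Figure D4:**
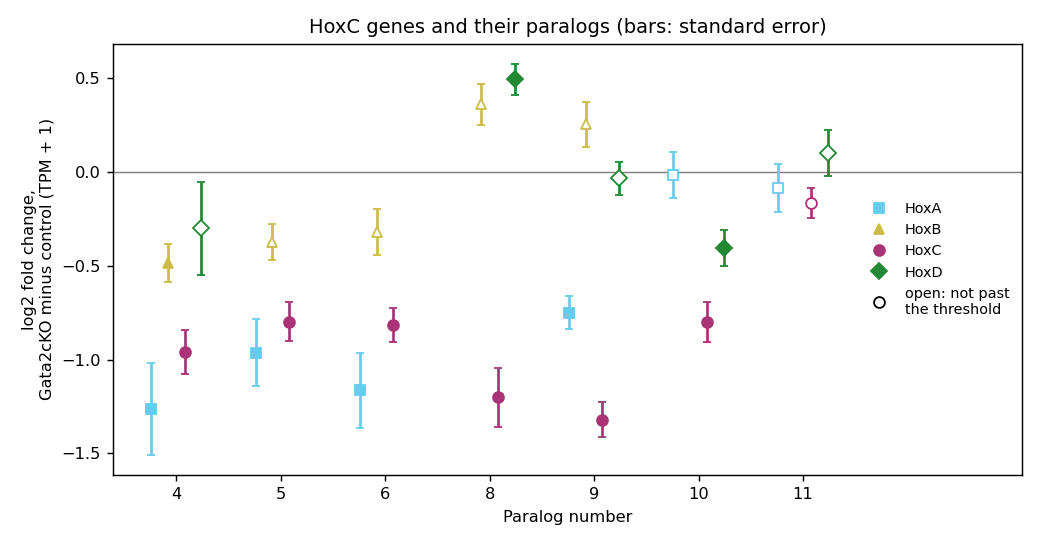
Log2 fold change (vertical axis, Gata2cKO against control, from log2(TPM + 1), bars SE) of the HoxC genes and their paralogs by paralog number (horizontal axis). Filled symbols passed the threshold and open ones did not; the HoxC circles of groups 4 to 10 lie between -1.32 and -0.80, near the HoxA squares in groups 4 to 6 and below all paralogs in groups 8, 9 and 10.

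Paralogs of the same number have closely related homeodomains, so that the change of a HoxC gene can be set against that of its copies in the same libraries. In 10 of 14 pairs the within-library ratio of the HoxC gene to its paralog was lower in every Gata2cKO library than in every control. In 0 it was higher, and in 4 the groups overlapped. For each of the 10 the exact permutation p was 0.10, the smallest this design allows, and the adjusted p was 0.14 over 14 pairs. The HoxC genes were themselves lower without overlap, so a lower ratio to a gene of steady level follows from that alone. No share over other gene pairs was computed. The 4 pairs that overlapped were Hoxc4 with Hoxa4, Hoxc4 with Hoxd4, Hoxc5 with Hoxa5 and Hoxc6 with Hoxa6. In groups 4, 5 and 6 the HoxA paralogs fell as well: Hoxa4 went from 53.6 ± 14.6 to 21.7 ± 6.27 TPM, Hoxa5 from 398 ± 79.5 to 203 ± 37.0 TPM and Hoxa6 from 71.0 ± 6.49 to 32.0 ± 9.91 TPM (SD, n = 3; adjusted p = 0.0278, 0.0243 and 0.0194 by limma). The change of the log2 ratio to these 3 genes was 0.30 for Hoxc4, 0.07 for Hoxc5 and 0.36 for Hoxc6. Hoxd4, low at 6.81 ± 3.19 and 5.03 ± 0.473 TPM, varied between controls, with 10.5 TPM in control replicate 1.

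Relative to the HoxB paralogs the anterior HoxC genes fell by similar amounts, 0.51 for Hoxc4 over Hoxb4, 0.52 for Hoxc5 over Hoxb5 and 0.50 for Hoxc6 over Hoxb6 on the log2 scale. Hoxb4 was at 84.6 ± 2.72 and 60.5 ± 7.29 TPM (limma adjusted p = 0.0330), Hoxb5 at 58.9 ± 1.10 and 45.4 ± 5.23 TPM (adjusted p = 0.0566) and Hoxb6 at 44.7 ± 2.02 and 35.8 ± 6.11 TPM (adjusted p = 0.143; SD, n = 3 each). All 3 HoxB genes had negative log2 fold changes, from -0.48 to -0.32, and in limma Hoxb4 alone passed, a call lost in 5 of the 6 removals. Hoxb5 passed too with median-of-ratios (adjusted p = 0.0276) or upper-quartile scaling or without mitochondrial genes, and the authors' deposited table calls all 3 lower (adjusted p = 0.00141, 0.0384 and 0.0359).

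Group 8 showed the widest gap between a HoxC gene and its copies. Hoxd8 was at 252, 225 and 227 TPM in controls and at 347, 324 and 322 TPM in Gata2cKO, and it rose (log2 fold change 0.50, SE 0.08, limma adjusted p = 0.0182), while Hoxb8 was at 107, 112 and 125 TPM and at 129, 164 and 151 TPM and did not pass (log2 fold change 0.36, adjusted p = 0.0870). The log2 ratio of Hoxc8 to Hoxd8 was 0.33, 0.74 and 0.80 in controls and -1.32, -0.70 and -1.21 in Gata2cKO, which places Hoxc8 above Hoxd8 in every control and below it in every Gata2cKO library. Against Hoxb8 the log2 ratio went from 1.66 ± 0.09 to 0.09 ± 0.20 (SD, n = 3 each). Hoxc8 carried 50.9% ± 3.42 of the TPM of its group in controls and 24.8% ± 3.61 in Gata2cKO. The group as a whole summed to 713 ± 36.3 and 638 ± 42.7 TPM, which overlapped, unlike the sums of the 5 other groups of the members, all lower in Gata2cKO.

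In group 9 Hoxc9 fell further than each of its 3 paralogs. Hoxa9 was at 146, 169 and 171 TPM in controls and at 95.8, 97.2 and 94.0 TPM in Gata2cKO and fell (log2 fold change -0.75, limma adjusted p = 0.00849). Hoxb9, at 54.8 ± 7.63 and 65.4 ± 6.65 TPM, and Hoxd9, at 311 ± 25.7 and 303 ± 8.36 TPM (SD, n = 3 each), did not pass (limma adjusted p = 0.223 and 0.828). The log2 ratio of Hoxc9 fell by 0.62 against Hoxa9, by 1.63 against Hoxb9 and by 1.34 against Hoxd9. Because Hoxd9 and Hoxa9 are the abundant copies, Hoxc9 made up 7.78% ± 0.250 of the group in controls and 3.58% ± 0.310 in Gata2cKO. In group 10, Hoxa10 was at 169 ± 6.20 and 168 ± 26.5 TPM (log2 fold change -0.02, 95% confidence interval -0.30 to 0.27) and Hoxd10 fell from 117 ± 9.84 to 87.9 ± 7.16 TPM (limma adjusted p = 0.0466). The Hoxd10 call was lost without a filter (adjusted p = 0.0518 in limma), without the trend (0.0524), with the replicate block (0.0537) and in 5 of the 6 removals. The log2 ratio of Hoxc10 fell by 0.80 against Hoxa10 and by 0.41 against Hoxd10, and its share of the group was 13.9% ± 1.40 in controls and 9.26% ± 0.185 in Gata2cKO.

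**Figure D5:**
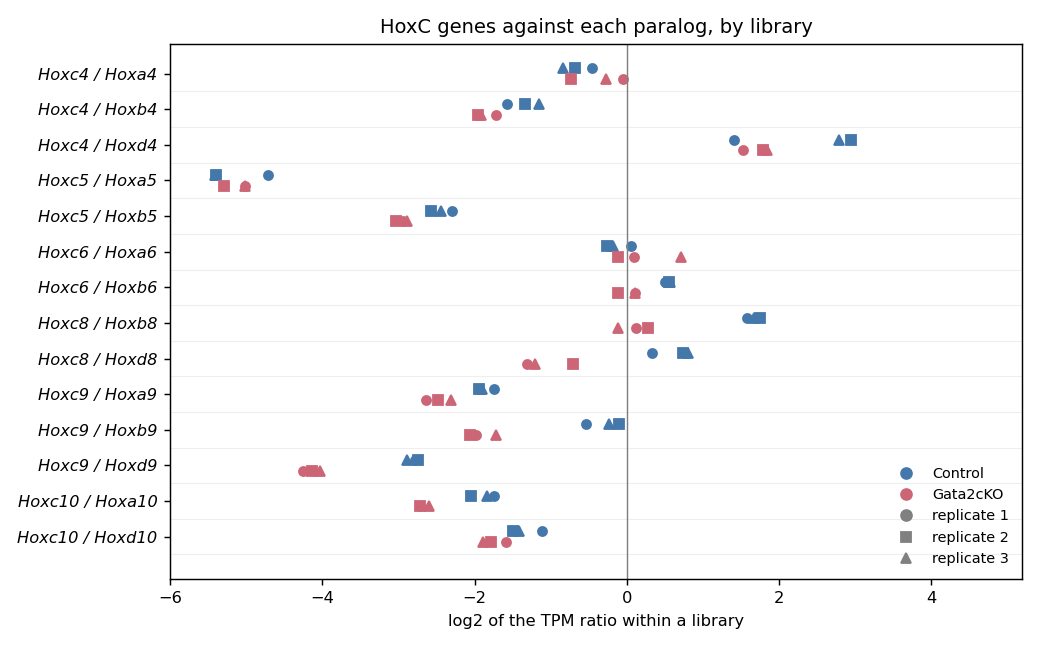
Log2 of the TPM ratio of each HoxC gene to each paralog (horizontal axis) in every library, 1 row per pair, control points above and Gata2cKO points below the row's centre, with the replicate number shown by the symbol. The points of the groups separate in 10 of 14 rows, most widely for Hoxc8 over Hoxd8 (difference of means -1.70) and Hoxc9 over Hoxb9 (-1.63), and overlap for Hoxc4, Hoxc5 and Hoxc6 over their HoxA paralogs and for Hoxc4 over Hoxd4.

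The count of called genes among Hox partners and regulators depended on the fit. Of 54 tested genes in 5 lists, limma called 2, or 3.70%, against 7.47% of all tested genes, while the authors' deposited table calls 13 of them, or 24.1%, against 13.3% of its genes. Of the 9 TALE cofactor genes, which encode the Pbx, Meis and Pknox proteins that bind DNA with Hox proteins, 0 passed the limma threshold (4 were lower at an unadjusted p under 0.05, and the authors' deposited table calls 3 lower), and all 9 had a negative log2 fold change (median -0.25, lowest -0.34). Meis2 had the smallest p, at 12.9 ± 0.225 and 10.4 ± 1.02 TPM (adjusted p = 0.0938). With median-of-ratios scaling, or without control replicate 1, 2 of the 9 were called lower. In Polycomb repressive complex 1, which keeps Hox genes silent, 1 of 19 tested genes fell, Scmh1, from 6.68 ± 0.421 to 4.76 ± 0.381 TPM (limma adjusted p = 0.0378); 3 were lower and 1 higher at an unadjusted p under 0.05, and the authors' deposited table calls 3 lower. In Polycomb repressive complex 2, which places the repressive histone H3 mark, 1 of 10 rose, the histone-binding subunit gene Rbbp7, from 156 ± 4.43 to 192 ± 7.22 TPM (limma adjusted p = 0.0495); it was the 1 gene with an unadjusted p under 0.05, and the authors' deposited table calls 1 of the 10 higher and 2 lower. Rbbp7 did not pass with median-of-ratios scaling (adjusted p = 0.101 in limma), with the filter at 5 TPM, with upper-quartile scaling, without mitochondrial genes, without the trend or with the replicate block, nor Scmh1 without a filter or with the block, and without any 1 of the libraries other than control replicate 1 neither list had a called gene. Their median log2 fold changes were -0.07 and -0.09, against 0.05 over all tested genes, with members on both sides of 0 (10 negative and 9 positive, 6 negative and 4 positive). Of 10 Trithorax and H3K27 demethylase genes, which counter Polycomb silencing, 0 passed in limma (1 was lower at an unadjusted p under 0.05, and the authors' deposited table calls 2 lower). The demethylase gene Kdm6b had the smallest p, at 84.6 ± 7.83 and 63.6 ± 11.3 TPM (limma adjusted p = 0.0991). Of 6 tested genes of signals upstream of Hox genes, Gdf11 and those of the retinoic acid pathway, 0 passed in limma (1 was higher and 1 lower at an unadjusted p under 0.05 and in the authors' deposited table). The retinoic acid receptor gene Rarg, with the smallest p of these, was at 23.8 ± 2.40 and 33.0 ± 4.95 TPM (limma adjusted p = 0.0720). The caudal genes Cdx1, Cdx2 and Cdx4 were not analysed here.

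The genes whose levels over the 6 libraries were most like the mean profile of the 6 HoxC genes, among 7149 genes of 10 TPM or more outside the Hox family, were Foxl2, Cables2, Tle2, Akap8l and Ubl7 (Pearson r from 0.992 to 0.998 over 6 libraries, which share the split between the groups). Foxl2, a forkhead transcription factor gene, was at 107, 112 and 148 TPM in controls and at 10.1, 14.95 and 9.71 TPM in Gata2cKO. Like most HoxC genes it was highest in Gata2cKO replicate 2 within its group. Tle2, a Groucho corepressor gene, went from 47.3 ± 1.82 to 34.3 ± 1.41 TPM. Within the Gata2cKO group, replicate 2 gave the highest value for 5 of the 6 HoxC genes and replicate 1 the lowest for 4. Control replicate 1 gave the highest value for Hoxc5, Hoxc6 and Hoxc10 and the lowest for Hoxc4, Hoxc8 and Hoxc9.

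Gata2 itself was at 384, 464 and 546 TPM in controls and at 431, 530 and 416 TPM in Gata2cKO (log2 fold change -0.01, limma adjusted p = 0.968). A gene-level value need not show the loss of a floxed part and so does not check the labels, on which each direction rests. Osr2 fell, from a control mean of 261 ± 54.1 TPM to 127 ± 9.35 TPM (limma adjusted p = 0.0136). Of 12 mesenchymal markers 5 fell (Tcf21, Osr2, Twist2, Nr2f1 and Nr2f2) and 1 rose (Col3a1). Their summed levels were 7806 to 9955 TPM in controls and 8557 to 11063 TPM in Gata2cKO. Most of these sums came from the collagen genes Col1a1, Col1a2 and Col3a1. Their means were 4045, 1276 and 1606 TPM in controls and 4458, 1450 and 2107 TPM in Gata2cKO. Pdgfra, a broad mesenchymal marker, was at 133 ± 3.74 and 143 ± 17.8 TPM (limma adjusted p = 0.587). Smooth muscle markers summed to 819 to 911 TPM in controls and 600.0 to 642 TPM in Gata2cKO (3 of 6 fell). Higher sums in Gata2cKO were found for markers of duct epithelium (1014 to 1097 and 1308 to 1325 TPM, 3 of 10 rose), mesothelium (338 to 440 and 552 to 645 TPM, 3 of 5 rose), endothelium (90.5 to 96.6 and 117 to 126 TPM, 3 of 6 rose) and mast cells (97.0 to 140 and 272 to 297 TPM, 3 of 5 rose). The mast cell marker Kit went the other way, at 2.90 ± 0.204 and 2.25 ± 0.208 TPM (limma adjusted p = 0.119). The authors' deposited table calls 4 of the 5 mast cell markers higher and 1 lower. The epithelial and mesothelial lists share Krt19, which is among the called genes of each. Cited1, the 1 tested marker of kidney nephron progenitors, rose from 7.68 ± 1.10 to 17.4 ± 2.72 TPM (adjusted p = 0.0107 in limma) and was called in all 6 removals. These counts were 1 to 5 for mesenchyme, 1 to 3 for smooth muscle, 0 to 6 for duct epithelium, 1 to 3 for mesothelium, 0 to 3 for endothelium and 2 to 4 for mast cells when 1 library was left out, with Gata2cKO replicate 1 giving the fewest, or as few as another, and control replicate 1 the most. They are of markers that fell for mesenchyme and smooth muscle and of markers that rose for the other lists. Without Gata2cKO replicate 2, 1 duct epithelium marker was called higher and 1 lower. Limma called none of 5 erythroid, 6 macrophage, 4 gonadal and 3 neural and glial markers (at an unadjusted p under 0.05, 2, 1, 0 and 1 were higher and 0, 0, 0 and 1 lower; the authors' deposited table calls 1 macrophage marker higher). Unadjusted p-values under 0.05 were common over all tested genes, as the ranks by p given above show. Without control replicate 1, which held 18277 TPM of globin transcripts against 6868 and 7818 in the other controls and 10520 to 13821 in Gata2cKO, 4 of the 5 erythroid and 1 of the 3 neural and glial markers were called higher. The share of TPM from the mitochondrial genome was 21.9% in control replicate 1 and 13.2% to 16.3% in the other libraries. The part of these markers and of the mitochondrial share in the change of the HoxC genes was not tested.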

How the data were processed

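RNA-seq of 3 control and 3 Gata2cKO mesonephroi was analysed. Per the labels' protocols, RNA was isolated with a PicoPure kit, polyadenylated RNA was captured and cDNA was primed with random hexamers; the sources used here do not state whether strand was kept. Per the submitters' processing notes the tools were STAR 2.7.11a, DESeq2 and DESeq and the build GRCm38, without saying what each was used for. The deposited values sum to 997351 to 998844 per library and were taken from this as TPM made by the authors. Read depth is unknown, and replicate spread is the measure of error. The authors' deposited table also gives a log2 fold change, a p-value and an adjusted p per gene.

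Genes with 1 TPM or more in at least 3 libraries (12300 of 14366) were fitted as log2(TPM + 1) on group with limma 3.58.1 (trend) in R 4.3.3, with Benjamini-Hochberg adjustment over all tested genes at 0.05. This scale understates changes of low genes; folds are ratios of mean TPM. The fit was tested on simulated data. Shares and ratios were compared by exact permutation of libraries (scipy 1.17.1). The genes and lists were chosen with earlier results of these data known. Outside the 6 members, named genes are Gata2, Osr2, called Hox genes and paralogs, the genes with the smallest p in each list (up to 3), the most abundant markers and the 5 genes most like the HoxC profile; Hoxc11, Calcoco1, Smug1 and Pdgfra were named after their values were seen, and not all genes the rule takes are printed. Positions are from GENCODE M21. No protein sequences were used here.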

Additional observations from a re-analysis of the deposited data

How the results depend on the processing

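Each of the 6 HoxC genes stayed lower and past the threshold in all 15 alternatives: a pseudocount of 0.1, no filter or one of 5 TPM, median-of-ratios and upper-quartile scaling, mitochondrial genes left out, limma without the trend, the replicate block, the authors' deposited values and the 6 removals of a library. With the replicate number as a block, 774 genes were called and no call of a HoxC gene changed; deviations of same-numbered libraries correlated at 0.25, -0.07 and 0.04, so the numbers were not taken to pair samples. The difference in HoxC share with the block, -7.78 percentage points, equals the unblocked one by arithmetic. Over all genes, 919 were called in the fit described, 1906 in the authors' deposited table, and 116 (without Gata2cKO replicate 1) to 1539 (without control replicate 1) when a library was left out; the cause was not tested. Of the called genes 76.7% were higher (705 against 214 lower), against 56.5% with median-of-ratios scaling (517 and 398), 62.8% with upper-quartile scaling (579 and 343), 60.7% without mitochondrial genes (442 and 286), 64.3% without Gata2cKO replicate 2 (148 and 82) and 50.4% in the authors' deposited table (961 and 945). The HoxC share differed by -8.16 to -7.56 percentage points over the removals. Of 14 paralog pairs, 10 to 13 did not overlap over the removals; without control replicate 1 or Gata2cKO replicate 2, 2 of these were higher.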
